A study of Homo sapiens with 4 samples.

Results

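Genes of the cellular response to low oxygen and of blood vessel growth were examined for MTF-1 peaks in control and cadmium-exposed cells: HIF1A, EPAS1, EGLN3, VEGFA, PGF, ADM, CA9, LDHA, PDK1 and NDRG1. They are 10 of the 20033 protein-coding genes of GENCODE 44, were chosen by name for their function, and were each measured over the gene plus 20 kb on either side. All peaks of both lists that overlapped these windows were taken, 131 in total, of 129429 peaks in the 2 lists. MTF-1, the metal response element transcription factor, was profiled by CUT&RUN in MDA-MB-231, a human breast cancer cell line that has long been in culture. In this assay an antibody tethers a nuclease to the bound protein, and the DNA cut free around it is sequenced. Control cells (2 libraries) were untreated MDA-MB-231 passaged serially in normal medium. Cadmium cells (2 libraries) were MDA-MB-231 passaged in cadmium sulfate and kept at 10 µM for at least 10 passages. No low-oxygen treatment is described for either group.

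Cells sense oxygen through prolyl hydroxylases, which mark the alpha subunits of hypoxia-inducible factor (HIF) for destruction while oxygen is present. When oxygen falls, HIF accumulates, binds the hypoxia response element and switches on genes for glycolysis, pH control and blood vessel growth, a program that is often active in breast tumors. MTF-1 is best known for binding metal response elements in front of metallothionein genes, and PGF has been described as a gene that needs MTF-1 for its induction in hypoxia.

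The authors merged the replicate reads of each condition before calling peaks, so each condition has 1 peak list with positions only, with no peak height, read depth or spread between replicates. All values below are therefore descriptions of these 2 lists, and no difference could be tested. The control list held 69299 peaks over 130 Mb and the cadmium list 60130 peaks over 90.9 Mb, so the cadmium list covered 0.697 times as many bases genome-wide. A peak was called lost when it was in the control list and shared no base with a cadmium peak, gained in the opposite case, and shared otherwise. Across the genome 27.9% of control peaks were lost and 15.1% of cadmium peaks were gained. A difference in sequencing depth between the lists and a difference in binding cannot be told apart here. Neither list had a peak over CDKN2A, a gene that is deleted in this cell line.

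At most of the 10 genes an MTF-1 peak at the transcription start was present in both lists, though narrower in cadmium at HIF1A, EGLN3, VEGFA and PGF. Many peaks farther away were narrower or missing in the cadmium list. The windows held 73 control peaks, of which 25 were lost (34.2%), and 58 cadmium peaks, of which 7 were gained (12.1%). The control list covered 169158 bases of these windows (13.5%) and the cadmium list 111568 bases (8.88%), a ratio of cadmium to control of 0.66. These shares are pooled over the summed windows. By a different measure, the median over genes, the window of a coding gene was covered to 7.04% by control peaks and to 5.14% by cadmium peaks. EGLN3, whose gene record is by far the longest of the 10, held 11 of the 25 lost and 3 of the 7 gained peaks. Without EGLN3, 14 of 51 control peaks were lost (27.5%) and the ratio of bases was 0.705, close to the 0.697 of the whole lists.

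At least 1 lost peak was found at 7 of the 10 genes, against 46.0% of all coding genes, and at least 1 gained peak at 4 of the 10, against 31.1%. The median window was 74526 bp for the 10 genes and 67471 bp for coding genes. The cadmium list covered more bases than the control list at PDK1 and NDRG1 and fewer at the other 8 genes. Of the 18115 coding genes with any peak, 23.8% had more bases in the cadmium list. With 10 genes, 1 gene is 10% of the set, so the shares for gained peaks and for more cadmium bases lay within 1 gene of the coding background. The share with a lost peak lay above it, with no test of the difference. The coding shares for lost and gained peaks are over all 20033 genes, including those with no peak in either list. All of the 10 genes had peaks, which widens the gap in the share with a lost peak.

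**Figure D1:**
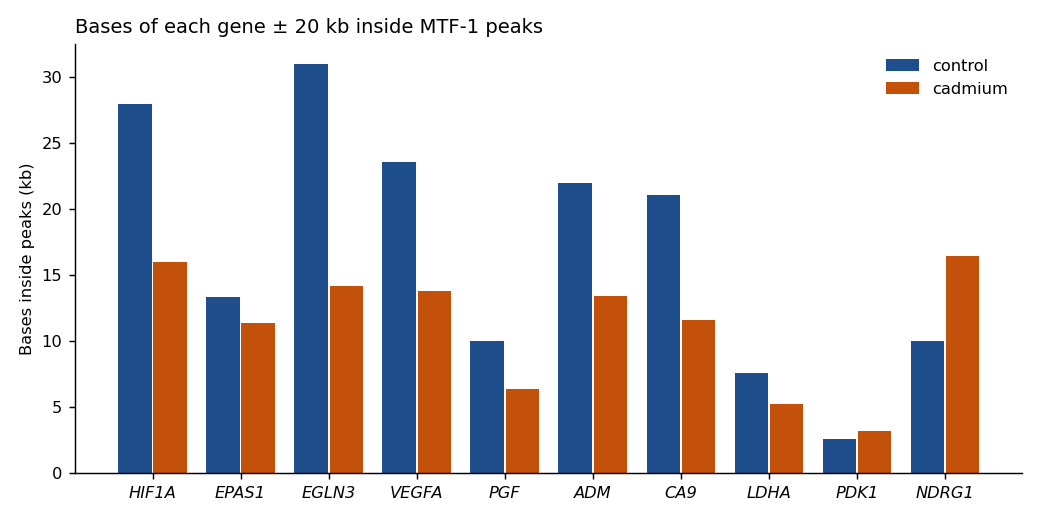
Bases of each gene plus and minus 20 kb that lie inside MTF-1 peaks (vertical axis, kb) in the control list (blue) and the cadmium list (orange), 1 merged list per condition and therefore no error bars. The cadmium bar is lower at 8 genes and higher at PDK1 and NDRG1.

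The HIF alpha subunits are the transcription factors that oxygen regulates. HIF1A, the alpha subunit present in most cell types, lies on the plus strand at chr14:61695513-61748259 (hg38). Its window held 7 control peaks and 5 cadmium peaks, covering 27993 and 15995 bases, or 30.2% and 17.2% of the window. The ratio of 0.571 (log2 -0.81) was above that of 24.8% of coding genes. A control peak of 7999 bp ran from 912 bp upstream of the start to 7086 bp inside the gene. The cadmium list had 3 separate peaks of 2199, 1199 and 2199 bp over the same stretch, together 70% of its length. The start itself was thus inside a peak in both lists, with the downstream edge at 7086 bp in control and 1486 bp in cadmium.

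HIF1A also had 4 lost peaks and no gained peak. The widest lost peak of the whole set, 4399 bp at chr14:61743801-61748199, overlapped exons 13, 14 and 15 at the 3′ end of HIF1A. A lost peak of 2399 bp at chr14:61718801-61721199 overlapped exon 2, one of 799 bp lay in an intron, and one of 1599 bp lay downstream at chr14:61758601-61760199. Just downstream of HIF1A, a wide peak near the start of the antisense gene HIF1A-AS3 was kept, at 8599 bp in control and 7399 bp in cadmium. Of the 4 lost peaks, 3 lay inside the gene and 1 lay beyond both its 3′ end and this kept downstream peak.

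EPAS1 encodes HIF-2 alpha, the alpha subunit best known from endothelial cells and kidney cancer, and lies on the plus strand at chr2:46293667-46386697 (hg38). It had 8 control and 6 cadmium peaks, covering 13326 and 11394 bases, a ratio of 0.855 (log2 -0.23) that exceeded the ratio of 61.7% of coding genes. The start peak was 4399 bp in control and 4799 bp in cadmium. Within 5 kb of the start the cadmium list covered slightly more bases than the control list, 4799 against 4399. Both HIF alpha genes had a start peak in each list, but the peak reached farther into the gene in cadmium at EPAS1 and less far at HIF1A.

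EPAS1 exchanged peaks within its introns. A gained peak of 1599 bp lay in an intron at chr2:46324801-46326399, 28193 bp from the start to its centre and 3402 bp from the closest control peak. Lost peaks of 999 bp at chr2:46305801-46306799 and 599 bp at chr2:46341001-46341599 lay in introns on either side of it, and a lost peak of 999 bp lay upstream at chr2:46273201-46274199. Each of these 4 peaks held at least 1 AP-1 string, TGACTCA or TGAGTCA, the sequence bound by FOS and JUN dimers. AP-1 strings thus occurred in both the gained and the lost peaks of this gene. Genome-wide, 41.2% of lost and 43.1% of gained peaks held the string. Within 500 bp around the peak centre, only the gained peak and the lost peak at chr2:46305801-46306799 held it. The AP-1 stretches are shown for the gained intronic peak (chr2:46325444-46325550) and the lost intronic peak (chr2:46306441-46306547), because one peak appeared and the other disappeared, as plus strand sequence of GRCh38 with the AP-1 string in capitals.
EPAS1 gained intronic peak: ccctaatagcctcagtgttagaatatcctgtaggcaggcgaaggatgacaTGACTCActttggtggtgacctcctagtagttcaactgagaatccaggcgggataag
EPAS1 lost intronic peak: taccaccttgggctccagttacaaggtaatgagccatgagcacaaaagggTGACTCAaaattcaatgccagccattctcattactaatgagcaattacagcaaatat

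EGLN3 encodes a prolyl hydroxylase of the oxygen-sensing family and is itself induced by HIF. Its gene record runs on the minus strand over chr14:33924227-34462774 (hg38), 538548 bp, but its canonical transcript takes up only the downstream end, chr14:33924227-33951074. The window held 22 control and 14 cadmium peaks, covering 30978 and 14186 bases. The ratio of 0.458 (log2 -1.13) was the lowest of the 10 genes and exceeded that of 13.7% of coding genes. At the start, the control peak of 3399 bp extended 725 bp upstream and 2673 bp downstream, and the cadmium peak of 999 bp had the same upstream edge but reached only 273 bp downstream. The start was kept and the part of the peak inside the gene was mostly absent from the cadmium list.

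Of the 11 lost peaks of EGLN3, 10 lay in introns upstream of the canonical transcript, as did all 3 gained peaks. The closest lost peak in that stretch was 38527 bp from the canonical start and the farthest 412727 bp. The gained peaks, of 399, 599 and 399 bp, clustered at chr14:34340201-34355999, between lost peaks at chr14:34331601-34334199 and chr14:34363801-34364599. The closest annotated start was that of another gene for all 3 gained peaks and lay at least 61802 bp away.

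**Figure D2:**
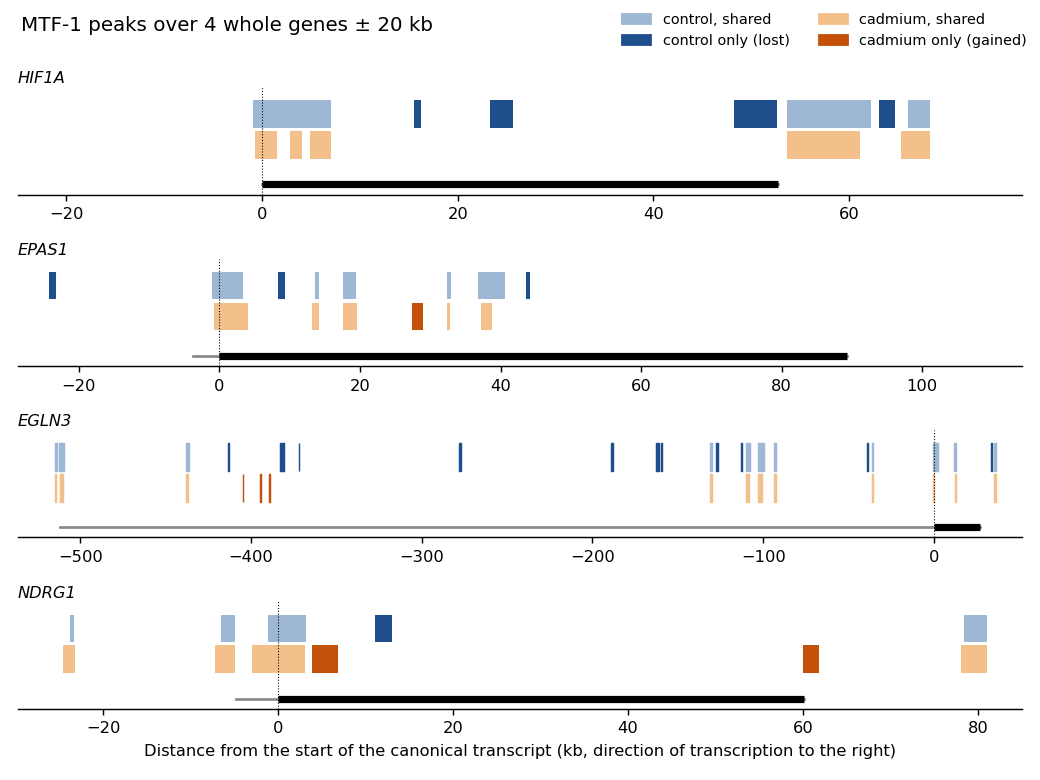
MTF-1 peaks over HIF1A, EPAS1, EGLN3 and NDRG1 plus and minus 20 kb, with distance from the start of the canonical transcript in kb on the horizontal axis. The upper row of bars in each panel is the control list and the lower row the cadmium list, dark bars are peaks of 1 list only, the black line is the canonical transcript and the grey line the gene record, and narrow EGLN3 peaks are drawn with a minimum line width. HIF1A shows 4 lost and no gained peaks, EGLN3 11 lost and 3 gained, and NDRG1 1 lost and 2 gained.

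The angiogenic ligands of the set are VEGFA, PGF and ADM. VEGFA, the main growth factor for blood vessels, lies on the plus strand at chr6:43770184-43786487 (hg38). It had 5 control and 4 cadmium peaks, covering 23595 and 13796 bases, or 41.9% and 24.5% of its window, a ratio of 0.585 (log2 -0.77). The start peak was the widest control peak of the set, 11799 bp over exons 1 and 2, and was 7999 bp in cadmium. Nearly all of this narrowing was upstream, where the edge lay 5210 bp from the start in control and 1810 bp in cadmium, while the downstream edge moved from 6588 to 6188 bp. A lost peak of 3199 bp began just beyond the 3′ end of VEGFA, at chr6:43786601-43789799, and held 1 AP-1 string. VEGFA and EGLN3 thus narrowed on opposite sides of the start.

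PGF, placental growth factor, is a relative of VEGFA that binds the VEGF receptor FLT1, and lies on the minus strand at chr14:74941834-74955626 (hg38). It had 6 control and 8 cadmium peaks, covering 9994 and 6392 bases, a ratio of 0.64 (log2 -0.64). None of the 6 control peaks was lost, but several were narrower in cadmium, and a control peak of 2399 bp upstream of the gene was met by 2 cadmium peaks of 1199 and 799 bp. The 1 gained peak, 399 bp at chr14:74973201-74973599, lay 17604 bp upstream.

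PGF was the only one of the 10 genes whose start base lay inside a control peak and outside every cadmium peak. The control peak reached from 602 bp upstream to 1396 bp downstream of the start, and the cadmium peak began 398 bp downstream and ended at the same edge. The PGF promoter, taken as 250 bases before to 50 bases after the start, was covered over 300 of its 300 bases in control and over 0 in cadmium. Of the 13283 coding genes whose start was covered in control, 4.83% had a start that was not covered in cadmium, and PGF was 1 of 9 such genes here. By the wider criterion of a peak within 1 kb of the start, PGF had a start peak in both lists. The gap is about 2 of the 200 bp bins in which the peak caller works. The promoter (RefSeq, GRCh38.p14, chr14:74955548-74955847, minus strand) is shown because its coverage differed between the lists, with the hypoxia response element core, ACGTG or GCGTG on either strand, in capitals (a match on the other strand reads CACGT or CACGC). It holds 1 match, which begins 162 bases before the start.
PGF promoter: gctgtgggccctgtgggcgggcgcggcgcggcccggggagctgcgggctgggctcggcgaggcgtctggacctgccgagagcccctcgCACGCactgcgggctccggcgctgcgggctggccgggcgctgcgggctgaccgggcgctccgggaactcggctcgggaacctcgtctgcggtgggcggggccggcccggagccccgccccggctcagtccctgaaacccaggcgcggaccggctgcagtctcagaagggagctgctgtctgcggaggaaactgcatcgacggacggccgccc

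ADM encodes adrenomedullin, a peptide that widens and stabilizes vessels, and lies on the plus strand at chr11:10305073-10307397 (hg38). The start peak of ADM had identical edges in both lists, chr11:10301601-10310799, 9199 bp over all 4 exons. Away from it, ADM had 4 lost peaks and no gained peak. The window held 8 control and 4 cadmium peaks, covering 21990 and 13396 bases, a ratio of 0.609 (log2 -0.72). Within 5 kb of the start the ratio was 0.921 and beyond it 0.385, the lowest value beyond 5 kb of the 10 genes. The lost peaks, of 799, 799, 799 and 1199 bp, were closest to the starts of SBF2 upstream and AMPD3 downstream, and 1 of 8 control peaks was closest to the start of ADM itself. The ADM promoter (RefSeq, GRCh38.p14, chr11:10304823-10305122, plus strand) is shown as a promoter inside an unchanged peak. The capitals mark 1 hypoxia response element core and 1 metal response element core, TGCACNC or TGCGCNC on either strand, which begin 101 and 126 bases before the start.
ADM promoter: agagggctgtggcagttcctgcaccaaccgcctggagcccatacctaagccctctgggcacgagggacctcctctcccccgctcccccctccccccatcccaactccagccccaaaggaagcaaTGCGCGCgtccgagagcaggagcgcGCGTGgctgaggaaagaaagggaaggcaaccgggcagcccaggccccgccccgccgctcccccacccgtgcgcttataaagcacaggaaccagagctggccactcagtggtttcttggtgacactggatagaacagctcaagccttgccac

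**Figure D3:**
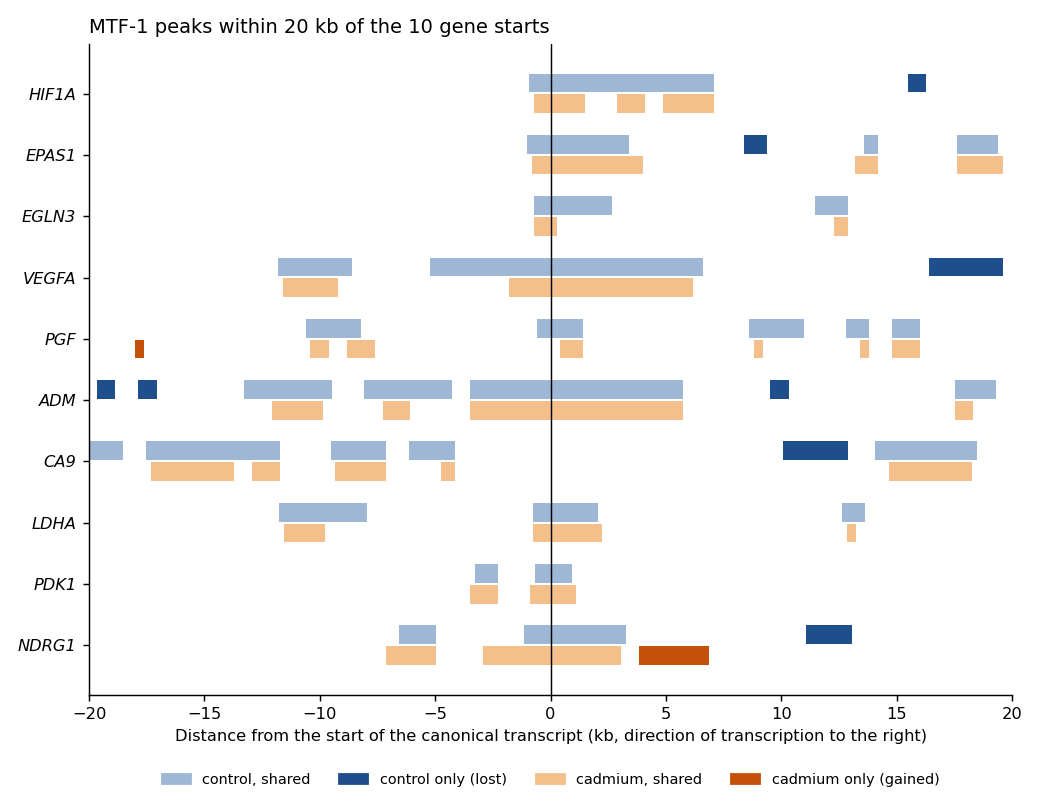
MTF-1 peaks within 20 kb of the canonical start of each gene, with distance from the start in kb on the horizontal axis and transcription to the right. For each gene the upper bar row is the control list and the lower the cadmium list, and dark bars are peaks of 1 list only. A peak lies over the start in both lists at 8 genes, the cadmium peak of PGF begins 398 bp downstream, and CA9 has no peak within 4129 bp.

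CA9, carbonic anhydrase IX, is a surface enzyme that regulates pH in hypoxic tumor cells and a widely used marker of hypoxia, and lies on the plus strand at chr9:35673928-35681159 (hg38). It was the only one of the 10 genes without a start peak in either list, a state found for 30.1% of coding genes. The closest peak of both lists ended 4129 bp upstream of the start. The window nevertheless held 7 control and 6 cadmium peaks, covering 21066 and 11594 bases, a ratio of 0.55 (log2 -0.86). All 13 peaks were closest to the start of another gene, such as CCDC107, ARHGEF39, TPM2 and TLN1. The 1 lost peak, 2799 bp at chr9:35684001-35686799, lay at an annotated start of TPM2, which encodes a tropomyosin. At another annotated start of TPM2 a peak was shared, 4399 bp in control and 3599 bp in cadmium. The values of CA9 therefore describe its neighborhood and not its own promoter.

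The CA9 promoter (RefSeq, GRCh38.p14, chr9:35673678-35673977, plus strand) was covered over 0 of 300 bases in both lists. It is shown because it held no peak although it contains 3 of the 4 motifs searched. The capitals mark a metal response element core 190 bases, an AP-1 string 77 bases and a hypoxia response element core 18 bases before the start. Of all 35116 RefSeq promoters of this length, 29.6% hold the metal response element core, 4.95% the AP-1 string and 48.4% the hypoxia response element core. A match is a description of the letters and not evidence of a bound site.
CA9 promoter: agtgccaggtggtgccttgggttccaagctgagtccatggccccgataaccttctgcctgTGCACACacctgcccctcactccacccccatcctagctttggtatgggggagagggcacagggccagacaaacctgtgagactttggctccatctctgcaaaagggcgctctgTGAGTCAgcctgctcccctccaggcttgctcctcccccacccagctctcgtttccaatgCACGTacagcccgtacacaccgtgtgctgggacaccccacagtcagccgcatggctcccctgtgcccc

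LDHA and PDK1 direct glucose toward lactate. LDHA, the A subunit of lactate dehydrogenase, lies on the plus strand at chr11:18394560-18408425 (hg38). It had 3 control and 3 cadmium peaks, none of them lost or gained, covering 7597 and 5197 bases, a ratio of 0.684 (log2 -0.55). The start peak was 2799 bp in control and 2999 bp in cadmium, with the same upstream edge 762 bp before the start. The upstream peak narrowed from 3799 to 1799 bp and the peak over exon 8 from 999 to 399 bp. The ratio was 1.07 within 5 kb of the start and 0.458 beyond.

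PDK1, pyruvate dehydrogenase kinase 1, lies on the plus strand at chr2:172555373-172608669 (hg38). It had 2 peaks in each list, all shared and all within 5 kb of the start, covering 2598 bases in control and 3198 in cadmium, a ratio of 1.23 (log2 0.30) that exceeded that of 88.7% of coding genes. The start peak was 1599 bp in control and 1999 bp in cadmium, wider by 1 bin of 200 bp on each side. The upstream peak was 999 and 1199 bp. The rest of this gene held no peak in either list.

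The promoters of LDHA (RefSeq, GRCh38.p14, chr11:18394313-18394612, plus strand) and PDK1 (chr2:172555840-172556139, plus strand) were covered over 300 of 300 bases in both lists. They are shown because they hold the most hypoxia response element cores of the 8 member promoters in the RefSeq table, 6 and 2 matches, in capitals. A CACGTG palindrome counts as 2 of these matches, one on each strand, and LDHA has such a pair 185 and 184 bases and another 87 and 86 bases before the start.
LDHA promoter: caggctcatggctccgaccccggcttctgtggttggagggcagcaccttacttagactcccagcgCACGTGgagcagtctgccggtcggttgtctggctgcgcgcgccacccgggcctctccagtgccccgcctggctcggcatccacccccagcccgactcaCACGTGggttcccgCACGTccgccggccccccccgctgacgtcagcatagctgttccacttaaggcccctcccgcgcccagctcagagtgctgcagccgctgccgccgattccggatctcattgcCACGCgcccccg
PDK1 promoter: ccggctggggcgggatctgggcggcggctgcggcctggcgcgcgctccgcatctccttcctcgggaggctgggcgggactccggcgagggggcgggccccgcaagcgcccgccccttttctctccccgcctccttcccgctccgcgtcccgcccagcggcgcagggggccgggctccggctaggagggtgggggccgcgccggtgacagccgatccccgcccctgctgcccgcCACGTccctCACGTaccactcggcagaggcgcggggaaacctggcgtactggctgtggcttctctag

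NDRG1, a stress-response gene induced by hypoxia and by nickel, lies on the minus strand at chr8:133237175-133302022 (hg38). It had 5 control and 6 cadmium peaks, covering 10021 and 16420 bases, or 9.56% and 15.7% of its window. The ratio of 1.64 (log2 0.71) was the highest of the 10 genes and exceeded that of 95.8% of coding genes. NDRG1 had more gained than lost peaks, 2 against 1, which held otherwise only for PGF, with 1 against 0.

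The wider coverage at NDRG1 was present both at the start and away from it, with ratios of 1.62 within 5 kb and 1.66 beyond. The start peak was 4399 bp in control and 5999 bp in cadmium, with the upstream edge at 1147 bp in control and 2947 bp in cadmium. A gained peak of 2999 bp, the widest of the 7, lay in an intron at chr8:133290401-133293399, only 602 bp from a control peak. The other, of 1799 bp at chr8:133235401-133237199, lay almost wholly beyond the 3′ end of the gene, overlapping only the last bases of exon 16, and was 16602 bp from any control peak. A peak of 1999 bp that overlapped exon 2 was lost. All 4 shared control peaks of NDRG1 had a wider counterpart in cadmium.

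Near and far coverage were compared over all 10 genes. Within 5 kb of the start, the control list covered 45631 and the cadmium list 39587 bases, a ratio of 0.868. Over the rest of the windows the values were 123527 and 71981 bases, a ratio of 0.583, or 0.613 without EGLN3. For all coding genes the summed ratios were 0.818 within 5 kb and 0.706 beyond, so a higher ratio near the start was also the general pattern. The ratio near the start was the higher one for HIF1A, EPAS1, VEGFA, ADM, CA9 and LDHA, and the lower one for EGLN3, PGF and NDRG1. PDK1 had no peak beyond 5 kb.

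**Figure D4:**
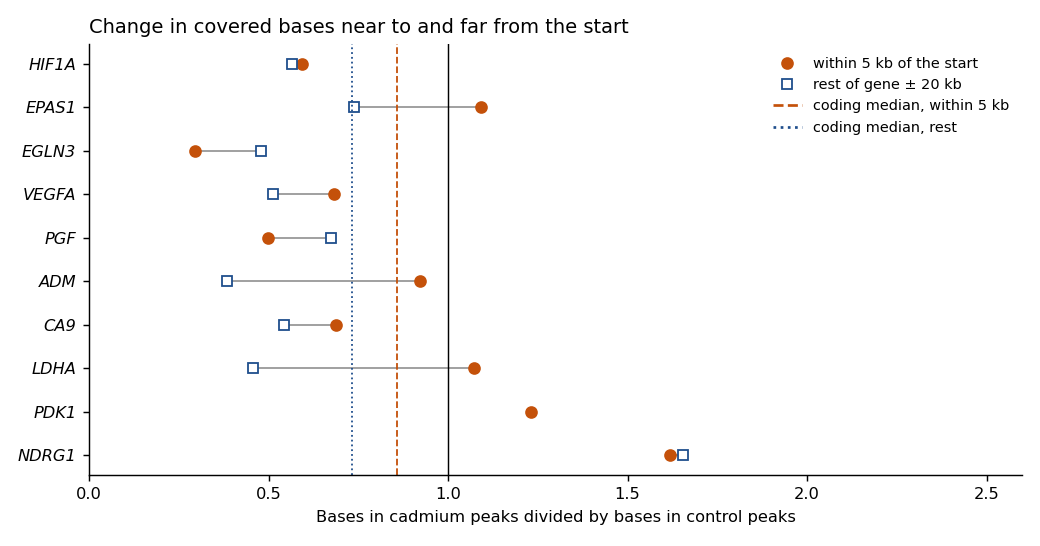
Bases in cadmium peaks divided by bases in control peaks (horizontal axis, no unit) for each gene, within 5 kb of the start (filled circles) and in the rest of the gene plus and minus 20 kb (open squares). Vertical lines give a ratio of 1 and the medians of coding genes, 0.857 within 5 kb and 0.733 for the rest. EPAS1, LDHA, PDK1 and NDRG1 lie above 1 near the start, and only NDRG1 does so in the rest.

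A start peak within 1 kb was present in both lists at 9 of the 10 genes, against 65.5% of coding genes. The 25 lost peaks all lay more than 5 kb from the canonical start of their gene, the closest at 8394 bp in EPAS1. Most of every window lies beyond 5 kb, and no matching share of lost or gained peaks was computed for all coding genes. Of the 25 lost peaks, 5 (20%) lay within 1 kb of some annotated start, against 15.1% of all lost peaks. These were peaks at other starts of HIF1A, EGLN3 and NDRG1, at TPM2 in the CA9 window and at a noncoding gene within HIF1A. Of the 7 gained peaks, 6 lay more than 5 kb away, the exception being the intronic peak of NDRG1 at 3853 bp, and 1 lay within 1 kb of another gene's start. Lost peaks had a median width of 999 bp (399 to 4399 bp), gained peaks 599 bp (399 to 2999 bp), shared control peaks 2199 bp and shared cadmium peaks 1199 bp. Where a peak was shared, the cadmium peak usually sat inside the control peak. Cadmium peaks were wholly covered by the control list in 36 of 51 cases (70.6%, against 65.7% of all shared cadmium peaks), and control peaks by the cadmium list in 12 of 48 (25%, against 34.8%), so the same pattern held across the genome.

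Some peaks in these windows belong by position to neighbors. The closest annotated start was that of the gene itself for 12 of 25 lost peaks, 3 of 7 gained peaks, 24 of 48 shared control peaks and 26 of 51 shared cadmium peaks. By gene, this held for both control peaks of PDK1, 7 of 8 of EPAS1, 5 of 6 of PGF, 3 of 5 of VEGFA, 3 of 5 of NDRG1 and 11 of 22 of EGLN3. It held for fewer control peaks at HIF1A (3 of 7), LDHA (1 of 3), ADM (1 of 8) and CA9 (0 of 7). Of the cadmium peaks of EGLN3, 5 of 14 were closest to a start of EGLN3.

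**Figure D5:**
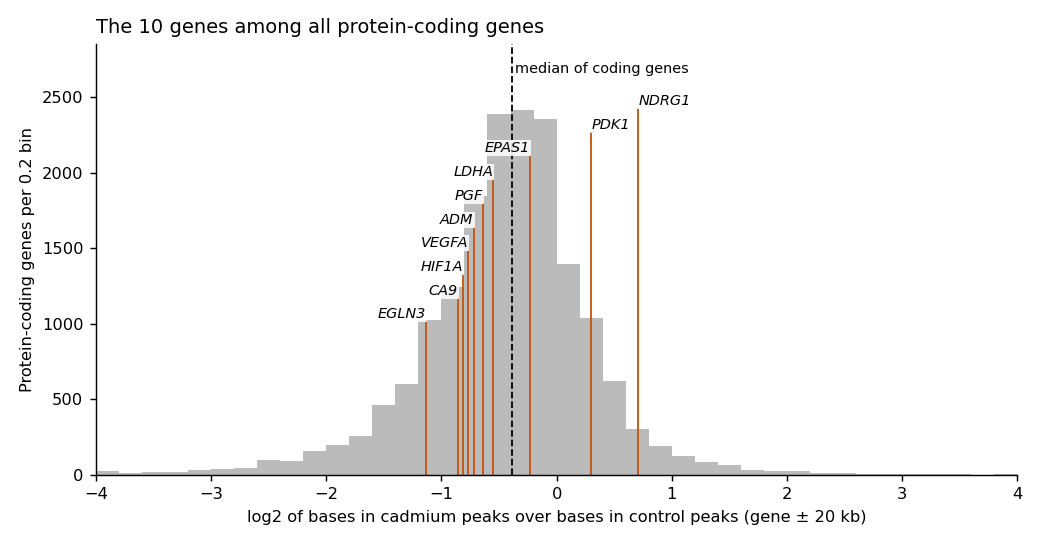
Histogram of the log2 ratio of bases in cadmium peaks to bases in control peaks for 17316 protein-coding genes plus and minus 20 kb with peaks in both lists, in bins of 0.2 on the log2 scale, with values outside -4 to 4 drawn in the end bins. The dashed line is the median of -0.39, and each orange line is 1 of the 10 genes, its height set only for legibility. EGLN3 lies lowest at -1.13 and NDRG1 highest at 0.71, and 7 of the 10 genes lie below the median.

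The 4 sequence motifs were also counted in whole peaks. AP-1 strings were in 9 of 25 lost peaks (36%, against 41.2% of all lost peaks) and in 2 of 7 gained peaks (28.6%, against 43.1%). The forkhead string, ATAAACA or ATAAATA or GTAAACA or GTAAATA, was in 13 lost peaks (52%, against 60.2%) and 2 gained peaks (28.6%, against 31.3%). Metal response element cores were in 13 lost (52%, against 48.4%) and 2 gained peaks (28.6%, against 39.4%). Hypoxia response element cores were in 18 lost (72%, against 61.2%) and 5 gained peaks (71.4%, against 55.4%). Each of these counts lay within 3 peaks of what the share in all peaks of the same class would give. That margin is wide for a class of 7 gained peaks, so it says little about them. Wide peaks have more room for a match, and widths were not matched here. The forkhead string is in 13.6% of all RefSeq promoters, and none of the 8 member promoters in the table held it.

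A further 66 genes of the same processes were counted, in a list that leaves out the 10 genes. Of these, 37 had a lost peak (56.1%, against 46.0% of coding genes) and 26 a gained peak (39.4%, against 31.1%). All 66 had peaks in both lists, whereas the coding shares include genes with no peak. A start peak in both lists was found at 53 (80.3%, against 65.5%), and 55 had more bases in control against 8 with more in cadmium. The median ratio was 0.793, and 0.762 for coding genes. Of 7 oxygen-sensing genes, 6 had a start peak in both lists, 1 had a lost peak (14.3%) and 5 a gained peak (71.4%). That 1 gene held 6 lost peaks, against 5 gained peaks in the group. All 7 had more bases in control, with a median ratio of 0.733. All 19 genes of glucose and energy metabolism had a start peak in both lists, with a median ratio of 0.838. Of 19 angiogenic ligands and receptors, 9 had a start peak in both lists and 10 in neither, with a median ratio of 0.714. Among the receptors that bind VEGF family ligands, KDR, NRP1 and NRP2 had a start peak in both lists and FLT1 and FLT4 in neither. Of 21 other HIF targets, 19 had a start peak in both lists.

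Only STC2, which encodes the secreted glycoprotein stanniocalcin 2, had a start peak within 1 kb in 1 list only. Its closest control peak lay 615 bp from the start and its closest cadmium peak 1415 bp. The 5 largest differences in bases were all toward control. They were at PFKL, a subunit of phosphofructokinase (23996 bases in control and 10997 in cadmium), MXI1, a MYC antagonist (35795 and 23360), HK1, a hexokinase (28387 and 16387), STC2 (21271 and 10270) and VEGFC, a lymphatic growth factor (11595 and 2996). None of the differences at these 5 genes exceeded that of EGLN3, 30978 against 14186, measured over a window of 578548 bp. Around the canonical transcript of EGLN3 plus and minus 20 kb, the values were 6596 and 2597. Differences in bases were not scaled to window length.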

How the data were processed

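MTF-1 CUT&RUN was made from control and cadmium-exposed MDA-MB-231 cells, with 2 libraries each. After adaptor trimming, the authors used Bowtie2 for alignment to hg38, merged replicates with SAMtools 1.8 and ran Epic2 with default settings once per condition. The submitters' processing notes list SICER 0.0.50 among the tools, without its role. No control library is named for peak calling. The deposited values are base positions of each peak, with a last column that holds 5 throughout, so they carry no count, signal or score, and depth per library is unknown from them. Peaks were joined from bins of 200 bp, so edges are no finer than that. Merging also leaves no spread between replicates, and a weak site near the caller's threshold can fall in 1 list only.

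Windows, starts (Ensembl canonical transcript) and exons were taken from GENCODE 44 on GRCh38. Peaks sharing at least 1 base were called shared. Covered bases, distances and motif strings on both strands (strings of different motifs can overlap) were computed with Python 3.11.15, numpy 2.4.6 and pysam 0.24.0, and figures were drawn with matplotlib 3.10.9. The steps were tested on simulated data. The percent of coding genes beside a gene's ratio is the share with a lower ratio. Promoters came from the RefSeq table of GRCh38.p14, which matched 8 of the 10 genes, all but VEGFA and NDRG1. The 10 genes, the 66 further genes and all comparisons were chosen with earlier results of these data known. Of the further genes, those with a start peak in 1 list only and the 5 with the largest difference in bases were named, and other genes appear as neighbors of a peak or, for KDR, NRP1, NRP2, FLT1 and FLT4, as examples chosen after their values were seen. Alternatives were a shared length of 50%, a gap of 1 kb, peaks of at least 1000 bp, windows of 0, 10 and 50 kb, other start definitions, 500 bp around peak centres and, added after seeing the data, windows around the canonical transcript. Expression, accessibility and coverage data were not analysed here.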

Additional observations from a re-analysis of the deposited data

How the results depend on the processing

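Of 54 pairs of a result and an alternative, 42 stayed within the set limits and 12 moved. In the set as a whole, lost peaks outnumbered gained peaks and the control list covered more bases under every alternative. The number of lost peaks, 25, was 40 with a shared length of at least 50% of the peak, 16 in the genes without flanks and 14 around the canonical transcripts (an alternative chosen after seeing the data), where gained peaks fell from 7 to 4, because most unique EGLN3 peaks lie outside its canonical transcript. Without flanks, 4 instead of 7 genes had a lost peak. AP-1 strings were in 4 instead of 9 lost peaks when only 500 bp around the centre were searched, a shorter sequence. Their share there was 16%, against 24.5% of all lost peaks. In that stretch, forkhead strings were in 7 instead of 13 lost peaks (28%, against 41.1%). Metal response element cores were in 8 instead of 13 (32%, against 28.8%). Of the 7 gained peaks, 2 kept an AP-1 string (28.6%, against 32.6% of all gained peaks). Forkhead strings were in 1 instead of 2 gained peaks (14.3%, against 25.5%) and metal response element cores in 0 instead of 2 (0%, against 30.6%). Hypoxia response element cores were in 9 instead of 18 lost peaks. Their share there was 36%, against 42.1% of all lost peaks, and 42.9% of gained peaks, against 46.6%. Both shares were thus below those of all peaks, whereas in whole peaks they were above. PDK1 had fewer bases in cadmium with 50 kb flanks, and NDRG1 more in every window. The excess of gained over lost peaks at NDRG1 and PGF depended on the definition of a shared peak. With a gap of 1 kb, NDRG1 had 1 lost and 1 gained peak. With a shared length of 50%, PGF had 3 lost and 2 gained peaks, and NDRG1 1 lost and 3 gained. With peaks of at least 1000 bp, 7 genes kept a start peak in both lists, with EGLN3 and PGF in control only. The cadmium start peaks of EGLN3 and PGF were each 999 bp wide, just under this limit. No paired analysis was possible because the replicates were merged before peak calling, and no replicate could be left out for the same reason. Peak lists without depth limit every statement to presence and width.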
